A study of Mus musculus with 18 samples.

Results

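The level of 8 genes was followed in mouse cortex: Pcp4, which lies inside the chromosome 16 segment duplicated in Dp16 mice and is also abundant in the striatum, and 7 genes outside the segment that mark striatal projection neurons, namely Drd1, Drd2, Adora2a, Ppp1r1b, Rgs9, Penk and Tac1. They were chosen by symbol from the 55385 genes of the count table, and 8 of 8 passed the filter on low counts that left 18717 genes for testing. The question was how the higher level of Pcp4 in mice with the duplication stands beside the level of striatal genes in the same libraries. The study profiled polyadenylated RNA of brain cortex in 18 libraries, 6 for each of 3 genotypes, with 3 males and 3 females in each set. WT and Dp16 mice were 17.1 to 18.0 weeks old and Dp16_2xIFNRs mice 17.7 to 18.0 weeks. WT mice were C57BL/6J. Dp16 mice carry the segmental duplication, which models trisomy 21 and gives segment genes 3 copies in place of 2. Dp16_2xIFNRs mice carry the same duplication with the interferon receptor gene cluster inside it returned to 2 copies. Pcp4 therefore has 3 copies in both duplication genotypes and 2 in WT, and each of the 7 markers has 2 copies in every group. For the separation of the cortex from the tissue below it, no protocol is given in the sources used here.

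The striatum lies directly under the cortex. Most of its neurons are projection neurons of the direct pathway, which carry the dopamine receptor Drd1 and the peptide precursor Tac1, or of the indirect pathway, which carry Drd2, the adenosine receptor Adora2a and the peptide precursor Penk. Both kinds contain Ppp1r1b (DARPP-32), a phosphatase inhibitor switched by cAMP signalling, and Rgs9, which shortens signalling by G proteins below dopamine receptors. Pcp4 (PEP-19) is a small protein that binds calmodulin and changes how fast it exchanges calcium. It is found in striatal projection neurons, in Purkinje cells of the cerebellum and in deep layers of the cortex itself, so cortex and striatum can both supply its RNA.

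Positions are on GRCm38. Pcp4 spans 16:96467606-96525793 on the plus strand, within the segment from 75540514 to 97962622. The markers lie on 6 other chromosomes, with Ppp1r1b and Rgs9 both on chromosome 11. Drd1 is at 13:54051183-54055705, Drd2 at 9:49340627-49408177, Adora2a at 10:75316877-75334784, Ppp1r1b at 11:98348404-98357796, Rgs9 at 11:109225355-109298129, Penk at 4:4133531-4138819 and Tac1 at 6:7554879-7565834. Pcp4, Ppp1r1b and Penk each overlap 1 other gene, whose highest count in any library was 2 (Igsf5), 80 (1700003D09Rik) and 56 (A830012C17Rik).

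The 250 bases before the start in the RefSeq promoter table are printed for Pcp4 and for 2 markers, Drd2 of the indirect and Tac1 of the direct pathway. Any link of these windows to the variation between libraries was not tested. The matched windows of Rgs9 and Drd1 are not printed. Promoter entries were matched for 5 of the 8 genes (RefSeq, GRCm38.p6). The gene spans above come from GENCODE, whose outermost start coincides with the RefSeq start for Pcp4 but lies upstream of it for Tac1, so that most of the Tac1 window falls inside the GENCODE gene, and downstream of it for Drd2. Capitals mark matches, on either strand, to the GC box GGGCGG, the TATA box TATAAA, the CCAAT box CCAAT, the E-box CACGTG and the cAMP response element TGACGTCA.
Pcp4 (16:96467356-96467605, plus strand): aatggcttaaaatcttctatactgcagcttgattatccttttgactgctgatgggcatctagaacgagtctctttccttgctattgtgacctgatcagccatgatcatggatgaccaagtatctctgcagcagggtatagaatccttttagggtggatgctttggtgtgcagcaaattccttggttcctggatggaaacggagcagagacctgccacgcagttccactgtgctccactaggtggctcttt
Drd2 (9:49340153-49340402, plus strand): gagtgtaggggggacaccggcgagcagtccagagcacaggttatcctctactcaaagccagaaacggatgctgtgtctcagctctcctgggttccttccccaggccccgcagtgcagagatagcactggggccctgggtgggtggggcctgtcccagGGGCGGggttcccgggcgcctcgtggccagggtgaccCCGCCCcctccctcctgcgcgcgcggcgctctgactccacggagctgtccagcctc
Tac1 (6:7554811-7555060, plus strand): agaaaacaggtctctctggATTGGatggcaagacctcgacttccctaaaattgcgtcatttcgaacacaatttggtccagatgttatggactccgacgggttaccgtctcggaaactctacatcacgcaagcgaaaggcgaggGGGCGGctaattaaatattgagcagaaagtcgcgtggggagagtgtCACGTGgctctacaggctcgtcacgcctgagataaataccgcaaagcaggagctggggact
The Pcp4 window held none of these letters and had a GC content of 46.8%, against a median of 52.4% over 32851 promoter windows of the same length. The Drd2 window, at 68.8% GC, held the GC box at -93 and, on the other strand, at -56. In Tac1, at 51.2% GC, matches were found at -231 (CCAAT box, other strand), -107 (GC box) and -61 (E-box). These letters are common: 32.74% of all windows held the GC box, 33.85% the CCAAT box, 12.37% TATAAA, 6.021% the E-box and 1.546% the full cAMP response element.

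Compared per gene length, Pcp4 was the most abundant of the 8 genes. Its median over 18 libraries was 334 RPKM, followed by Penk at 119 RPKM, Ppp1r1b at 97.8 RPKM, Adora2a at 17.7 RPKM, Tac1 at 16.3 RPKM, Drd2 at 12.3 RPKM, Rgs9 at 9.19 RPKM and Drd1 at 8.0 RPKM. Pcp4 exceeded Penk in 18 of 18 libraries, whereas the lower end of the order was less fixed: Adora2a exceeded Tac1 in 13 of 18 and Rgs9 exceeded Drd1 in 11 of 18. The labelled tissue was also checked. All 7 genes of cortical excitatory neurons were detected in every genotype, with a summed level of 1718 to 2324 CPM, which are counts scaled to a common library size, and Slc17a7, the cortical vesicular glutamate transporter, ran from 1235 to 1699 CPM. Totals per library ran from 46346019 to 67281449 counts.

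The 3 receptor genes varied widely inside each genotype. Drd1 ranged over 14.5 to 40.4 CPM in WT (median 31.6), 14.5 to 34.3 in Dp16 (median 25.6) and 13.8 to 45.5 in Dp16_2xIFNRs (median 27.5). Drd2 ranged over 9.83 to 45.5 CPM in WT (median 31.4), 8.93 to 41.5 in Dp16 (median 28.7) and 8.42 to 58.3 in Dp16_2xIFNRs (median 32.5). For Adora2a the ranges were 14.0 to 67.7 CPM (median 41.8), 17.7 to 60.7 (median 46.2) and 15.3 to 86.8 (median 47.1) in the same order. The 3 genotypes overlapped over most of their ranges for every receptor, and the highest library exceeded the lowest of its own genotype by up to 6.92-fold (Drd2 in Dp16_2xIFNRs).

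The signalling genes and the peptide precursors were spread in the same way. Ppp1r1b ranged over 132 to 378 CPM in WT (median 265), 123 to 318 in Dp16 (median 235) and 121 to 415 in Dp16_2xIFNRs (median 239). Rgs9 ranged over 21.0 to 77.2 CPM in WT (median 53.4), 21.8 to 70.2 in Dp16 (median 50.1) and 21.7 to 92.3 in Dp16_2xIFNRs (median 55.4). These genes, which act below the receptors, again showed no genotype standing apart. Penk ranged over 72.3 to 282 CPM in WT (median 176), 85.4 to 269 in Dp16 (median 163) and 72.8 to 315 in Dp16_2xIFNRs (median 183). Tac1 ranged over 10.2 to 23.97 CPM in WT (median 20.7), 10.8 to 27.0 in Dp16 (median 18.4) and 11.1 to 32.9 in Dp16_2xIFNRs (median 20.7). The same libraries were lowest throughout: WT replicate 1, Dp16 replicate 4 and Dp16_2xIFNRs replicate 4 were the lowest of their genotype for 7 of 7 markers. At the high end, Dp16_2xIFNRs replicate 5 was the highest of all 18 for each of the 8 genes. The other genotypes were less uniform there. In WT the highest library was replicate 5 for 6 markers and replicate 3 for 1. In Dp16 it was replicate 6 for 4 markers and replicate 3 for 3.

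Pcp4 was higher with the duplication but shared part of this pattern. Its WT libraries spanned 126 to 182 CPM (median 152), the Dp16 libraries 165 to 278 CPM (median 242) and the Dp16_2xIFNRs libraries 195 to 284 CPM (median 252). The mean was 150 ± 19.2 CPM in WT, 235 ± 41.1 in Dp16 and 244 ± 32.6 in Dp16_2xIFNRs (SD, n = 6 each). WT and Dp16 overlapped at 1 point: Dp16 replicate 4, the Dp16 library with the least of every striatal marker, had 165 CPM, below WT replicate 3 at 182 CPM. WT and Dp16_2xIFNRs did not overlap, and how many other genes separate in this way was not counted.

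**Figure D1:**
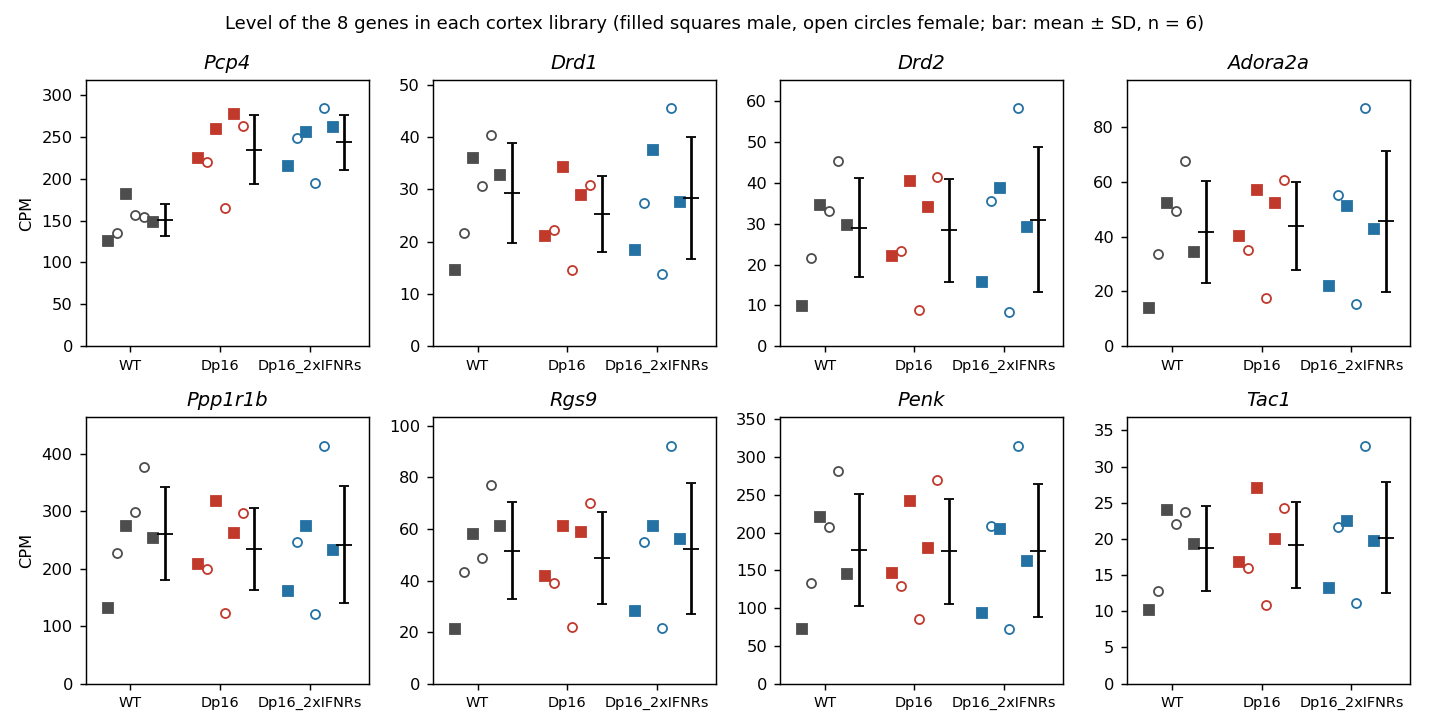
Level of each of the 8 genes in every library, in CPM, by genotype; filled squares are libraries of males, open circles those of females, and bars show the mean ± SD (n = 6). Pcp4 sits higher in Dp16 (165 to 278 CPM) and Dp16_2xIFNRs (195 to 284 CPM) than in WT (126 to 182 CPM). Dp16 replicate 4 lies below the highest WT library, WT replicate 3. The ranges of the 7 markers overlap in all genotypes.

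**Figure D2:**
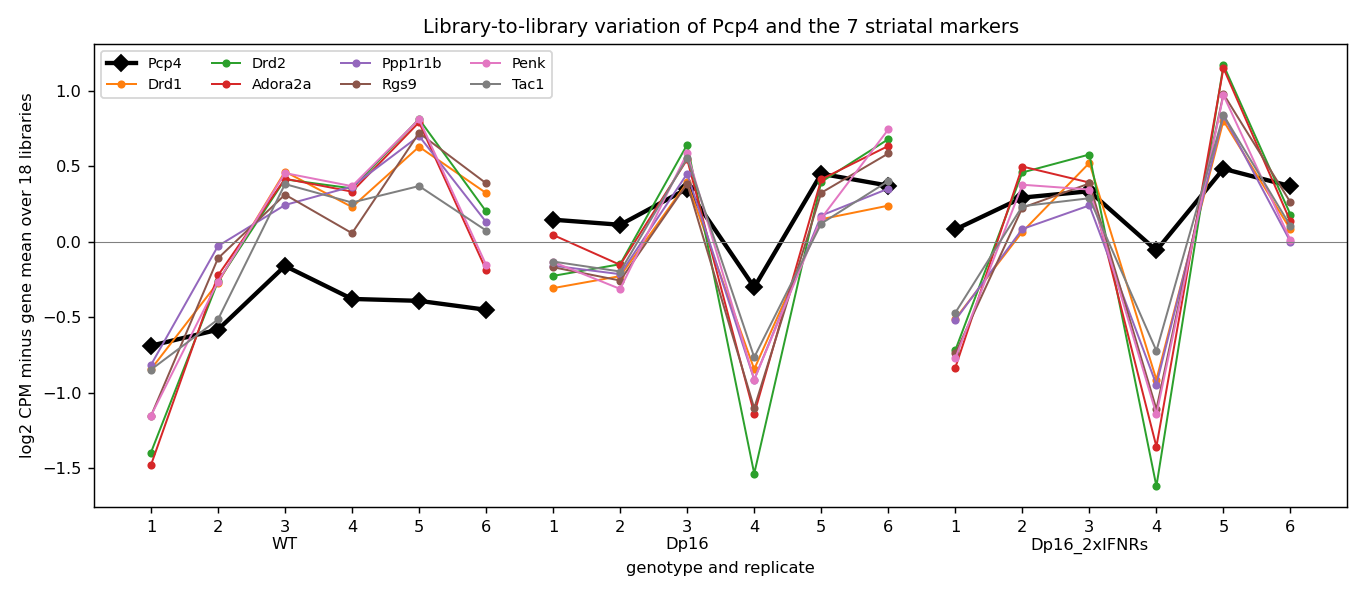
Log2 CPM of each gene minus its mean over 18 libraries, by genotype and replicate number; lines join libraries of a genotype for reading only, since replicates have no order. The 7 markers dip together in WT replicate 1, Dp16 replicate 4 and Dp16_2xIFNRs replicate 4 and peak together in Dp16_2xIFNRs replicate 5, and Pcp4 follows with smaller steps.

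Pcp4 was called higher in both comparisons with WT, which share the 6 WT libraries. In Dp16 it rose 1.56-fold (95% interval 1.31 to 1.85; log2 fold change 0.64, SE 0.118; edgeR adjusted p = 0.00949), and 1 of the 8 genes was called, where 0.748% of all tested genes were. In Dp16_2xIFNRs it rose 1.62-fold (95% interval 1.36 to 1.92; log2 fold change 0.69, SE 0.118; edgeR adjusted p = 0.00403), again 1 of 8 beside 1.05% of all tested genes (196 genes, or 304 with the replicate number as a block, which left Pcp4 called at a log2 fold change of 0.69). Among the 115 tested genes of the duplicated segment, 59.1% were called higher in Dp16 and 54.8% in Dp16_2xIFNRs, so the call of Pcp4 was that of most segment genes. Between the duplication genotypes, 0 of 8 were called beside 0.0214% of all genes, and the fold for Pcp4 was 1.04 (95% interval 0.876 to 1.23).

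Of the 7 markers, 0 were called in any of the 3 comparisons by edgeR's quasi-likelihood test, 0 had an unadjusted p under 0.05, and 0 were called by DESeq2 or limma-voom. Their intervals were wide. Drd2 stood at 0.990-fold in Dp16 relative to WT, with a 95% interval from 0.494 to 1.98, and Drd1 at 0.864-fold, with an interval from 0.547 to 1.36. The intervals of 7 of 7 markers in Dp16 relative to WT held both no change and, for 5 of them, a 1.5-fold rise, so differences of that size between genotypes in striatal RNA were not resolved by these comparisons. In bulk tissue, fewer striatal cells and less RNA per striatal cell cannot be told apart, and the amount of striatal tissue in each sample was not measured.

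To place Pcp4 beside striatal RNA library by library, a striatal index was computed as the mean log2 CPM of 10 other striatal genes, none of them among the 8; Pde10a, a phosphodiesterase gene, Adcy5, an adenylyl cyclase gene, Rasd2 and Rxrg are examples. The index spanned 4.35 to 5.71 across WT libraries, 4.03 to 5.57 across Dp16 and 4.16 to 6.03 across Dp16_2xIFNRs, which are spans of 2.56-, 2.91- and 3.66-fold. Group means were close, at 5.18, 5.06 and 5.15. The index was then added as a term beside genotype and sex, which gives each gene a slope, the log2 change per unit of index, and a genotype difference at equal index.

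All 8 genes had a positive slope that passed edgeR's adjusted threshold, against 0.925% of the 18707 genes outside the index itself. The markers belong to the same class of genes as the index, so their slopes describe how closely the striatal genes move together. Drd2 had the steepest, 1.5 ± 0.0512 log2 units per unit of index (slope ± SE), followed by Adora2a at 1.35 ± 0.0659. Penk, Rgs9, Ppp1r1b and Drd1 had slopes of 1.18 ± 0.0623, 1.15 ± 0.0591, 0.93 ± 0.0342 and 0.92 ± 0.0583. Tac1 had the lowest slope of the markers, 0.87 ± 0.0595. Among these markers alone, the indirect-pathway genes Drd2, Adora2a and Penk lay above the direct-pathway genes Drd1 and Tac1 in slope, which was not tested as a difference. Single genes of the wider pathway lists examined below were mixed in this respect. Isl1 of the direct-pathway list had a slope of 1.61, above that of Drd2. In the indirect-pathway list Sp9 and Gpr52 had 0.44 and 0.84, below Tac1, and Six3 had 1.74. The list medians were 0.28 for the direct and 0.44 for the indirect pathway.

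Pcp4 had a slope of 0.35 ± 0.0379 (edgeR adjusted p = 8.46e-06), which is a 1.27-fold change of Pcp4 for each doubling of the index. It was the lowest of the 8. In a joint fit of all 18 libraries with a slope for each genotype, the Pcp4 slope was 0.34 ± 0.0834 in WT, 0.42 ± 0.0671 in Dp16 and 0.30 ± 0.0556 in Dp16_2xIFNRs. The WT slope of that fit did not pass (edgeR adjusted p = 0.169), and no difference of slopes between genotypes was called (edgeR adjusted p = 0.811 for Dp16 minus WT, 0.937 for Dp16_2xIFNRs minus WT and 1.00 for Dp16_2xIFNRs minus Dp16). Without the library of lowest index in each genotype the common slope was 0.34 ± 0.0649 (edgeR adjusted p = 0.0147). With the replicate number as a block it was 0.35 ± 0.0736 and no longer passed (edgeR adjusted p = 0.0947).

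**Figure D3:**
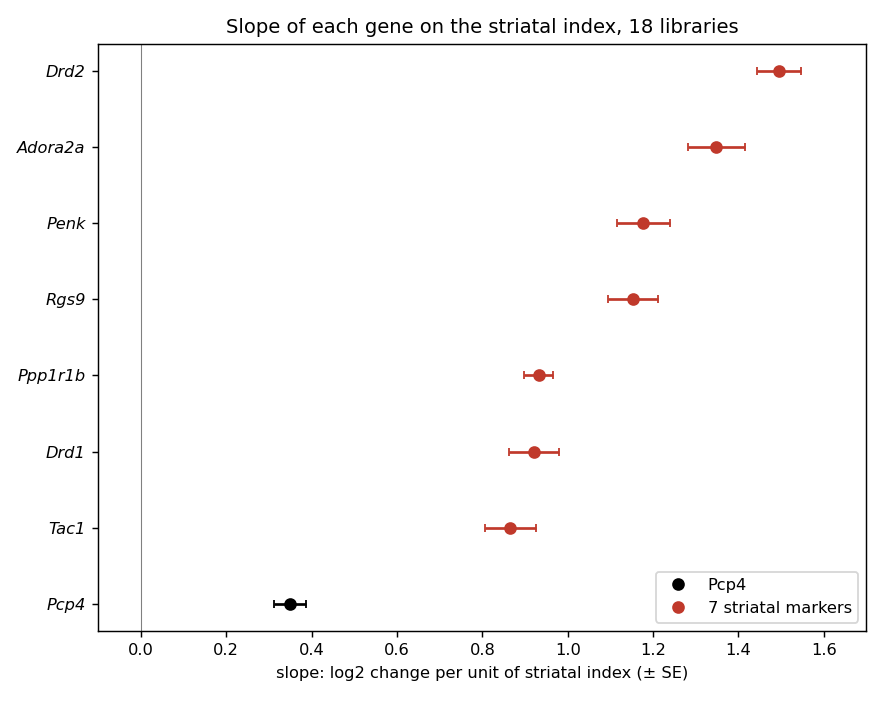
Slope of Pcp4 and the 7 markers on the striatal index, in log2 units per unit of index, with bars of 1 SE. Drd2 is at the top with 1.5 and Pcp4 at the bottom with 0.35, below every marker.

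The genotype difference in Pcp4 kept its size at equal index and its error shrank. In Dp16 relative to WT the fold was 1.59 (95% interval 1.48 to 1.71; log2 fold change 0.67, SE 0.0487; edgeR adjusted p = 5.90e-08), and in Dp16_2xIFNRs relative to WT it was 1.62 (95% interval 1.51 to 1.74; log2 fold change 0.70, SE 0.0486; edgeR adjusted p = 3.32e-08). The SE in Dp16 relative to WT was 2.42 times smaller than without the index. Between the duplication genotypes the fold was 1.02, with a 95% interval from 0.951 to 1.09.

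Moved to the mean index along the common slope, the WT libraries separated from those of both duplication genotypes, which overlapped each other. WT libraries ran from 135 to 171 CPM (148 ± 12.4, SD, n = 6), Dp16 libraries from 215 to 262 CPM (236 ± 14.9) and Dp16_2xIFNRs libraries from 229 to 253 CPM (241 ± 9.01). Dp16 replicate 4 moved from 165 to 215 CPM, above every WT library. The coefficient of variation within a genotype was 12.8% before and 8.38% after this step in WT, 17.5% and 6.32% in Dp16, and 13.4% and 3.75% in Dp16_2xIFNRs. These values come from the same libraries that set the slope, and separation of this kind was not counted for other genes.

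**Figure D4:**
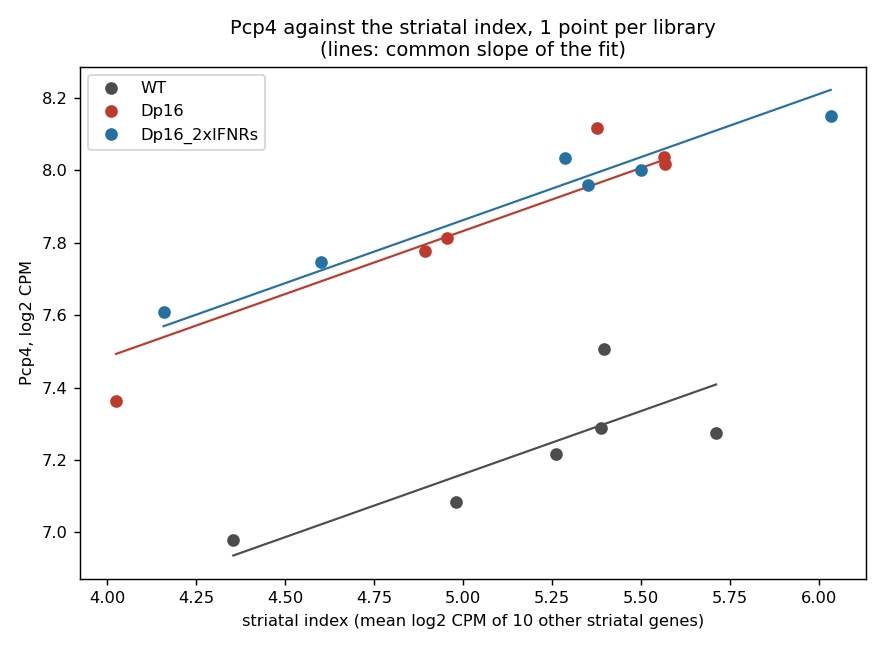
Pcp4 in log2 CPM against the striatal index for the 18 libraries, coloured by genotype, with parallel lines of the common slope of 0.35 through each genotype's mean. The Dp16 and Dp16_2xIFNRs lines run above the WT line over the observed range; the fitted differences are 0.67 and 0.70 log2 units.

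For the markers, 0 of 7 were called at equal index in any comparison by edgeR, beside 0.743%, 1.06% and 0.0214% of all tested genes in the order of comparisons above. An unadjusted p under 0.05 was found for 1 of 7 in Dp16 against WT (Adora2a) and 1 of 7 in Dp16_2xIFNRs against WT (Ppp1r1b). Between the duplication genotypes it was found for 2 of 7, Adora2a and Penk, both lower in Dp16_2xIFNRs. The share of all tested genes under this unadjusted threshold is not given here. Adora2a had the highest fold, 1.2 in Dp16 relative to WT (edgeR adjusted p = 0.199), and Ppp1r1b stood at 0.916 in Dp16_2xIFNRs relative to WT (edgeR adjusted p = 0.199). Over all tested genes the index left the calls nearly as they were: 134 genes were called in Dp16 relative to WT both without it (140) and with it (139), and 188 in Dp16_2xIFNRs relative to WT (196 without, 199 with; 304 and 313 with the replicate block).

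**Figure D5:**
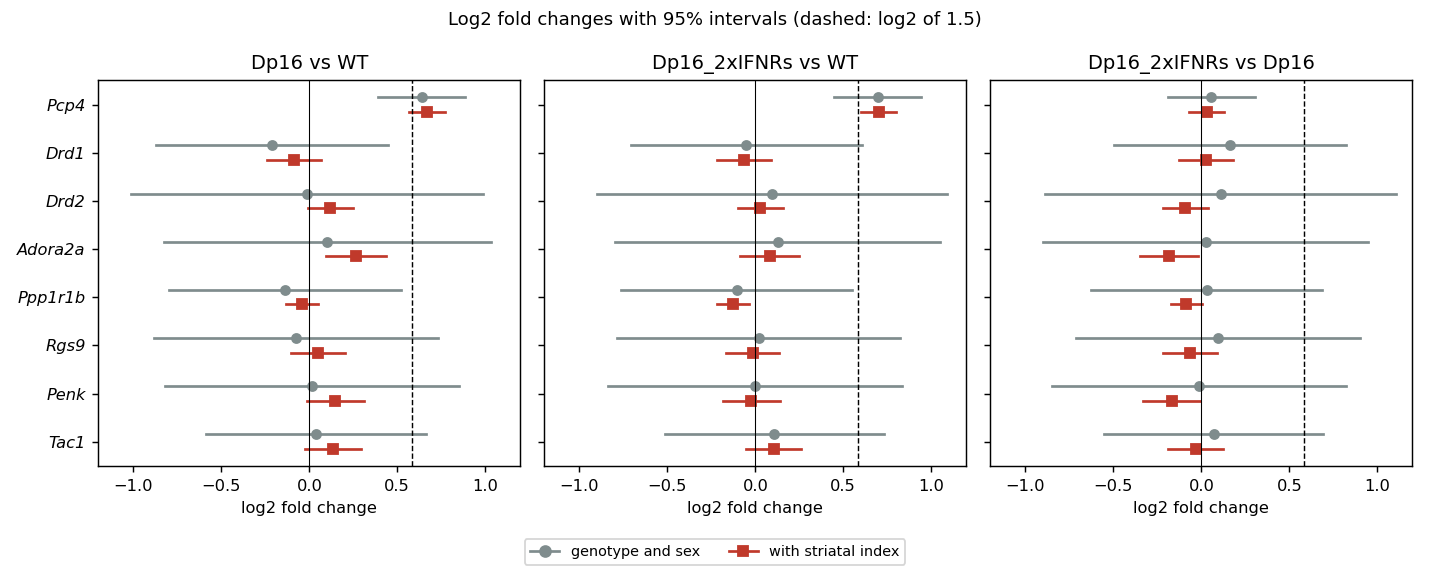
Log2 fold changes of the 8 genes with 95% intervals in the 3 comparisons, from the fit with genotype and sex (circles) and the fit with the striatal index added (squares); the dashed line is the log2 of the copy ratio of 1.5. Pcp4 lies at 0.64 and 0.67 in Dp16 and at 0.69 and 0.70 in Dp16_2xIFNRs relative to WT, and its intervals narrow with the index.

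Beside the other genes of the duplicated segment, Pcp4 lay in the upper part of the folds. Over the 111 tested segment genes outside the 4 interferon receptor genes, the median fold relative to WT was 1.46 in Dp16 and 1.47 in Dp16_2xIFNRs, and Pcp4 ranked 27 and 17 from the top. It ranked 7 by mean CPM. Of these 111 genes, 1 had a called slope on the index, and it was Pcp4; the median slope was 0.01. Pcp4 ranked 9 by slope: 8 segment genes had steeper slopes that were not called, the steepest that of Clic6 at 1.19 (edgeR adjusted p = 0.0767), and the difference of the Pcp4 slope from the others was not tested. Wrb, which encodes a receptor for insertion of tail-anchored membrane proteins and lies near Pcp4, stood just below it in Dp16 with the same 1.56-fold rise but an SE of 0.0414 against 0.118 for Pcp4, and its slope was 0.04. Gm49227, just above Pcp4, also stood at 1.56-fold but was not called (edgeR adjusted p = 0.554). In Dp16_2xIFNRs the neighbours in the order were Mx2, an interferon-induced GTPase gene at 1.69-fold (edgeR adjusted p = 0.145), and Kcnj6, a potassium channel gene that rose 1.60-fold (edgeR adjusted p = 0.00163). Among 21 genes around Pcp4 in the distal segment, 19 were tested, 19 of 19 lay above WT in both comparisons and 11 were called higher in each, while 0 had a called slope.

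Further striatal genes were examined in the same way. Across 5 lists with 39 tested genes (the index genes, genes of the direct and of the indirect pathway, dopamine and cAMP signalling, and transcription factors), 0 were called between genotypes by edgeR, DESeq2 or limma-voom, with 2, 2 and 0 at an unadjusted p under 0.05 in Dp16 against WT, Dp16_2xIFNRs against WT and between the duplication genotypes. For these and the lists below, the share of all tested genes under the unadjusted threshold is not given. On the index, 27 of the 39 had a called positive slope and 0 a negative one, where the 10 index genes count among the 27. In the direct-pathway list 3 of 6 rose with the index, among them Pdyn, the dynorphin precursor (slope 0.35 ± 0.0575), and Slc35d3 (1.1 ± 0.0769), with a list median of 0.28 beside 0.00 over all genes. In the indirect-pathway list 3 of 5 did, with Gpr52, a receptor that raises cAMP, at 0.84 ± 0.0844 and the transcription factor gene Six3 at 1.74 ± 0.168 (list median 0.44). Of 11 tested signalling genes 7 rose, among them the phosphodiesterase gene Pde1b at 0.58 ± 0.0265, with the G protein genes Gnal at 0.38 ± 0.0340 and Gng7 at 0.59 ± 0.0541 (list median 0.22). Of 8 transcription factor genes 5 did, including Rarb at 0.71 ± 0.0512 and Meis2 at 0.38 ± 0.0348 (list median 0.38).

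Among the relatives of Pcp4 and the calmodulin genes, 1 of 10 followed the index. Pcp4l1, a relative of Pcp4 outside the segment, had a slope of 0.34 ± 0.0380 (edgeR adjusted p = 1.48e-05), next to the 0.35 of Pcp4. Its level was 113 ± 18.0 CPM in WT, 103 ± 12.4 in Dp16 and 106 ± 14.8 in Dp16_2xIFNRs (SD, n = 6 each), and it was not called between genotypes. The list as a whole had 0 calls between genotypes by edgeR, DESeq2 and limma-voom, with 1, 0 and 0 genes at an unadjusted p under 0.05 in the order of comparisons above. No share of all tested genes is given beside these counts.

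Cortical genes were examined because deep cortical layers also contain Pcp4. Of 10 genes of layers 5 and 6, 1 rose with the index, Syt6, a synaptotagmin gene, with a slope of 0.53 ± 0.0679. Of 8 genes of layers 2 to 4, 0 had a called slope and 1 lay above 0; Cux2, an upper-layer transcription factor gene, had a slope of -0.13 ± 0.0349 (edgeR adjusted p = 0.134). Of the 7 cortical excitatory genes 0 were called and 0 lay above 0, with Slc17a7 at -0.12 ± 0.0430. Between genotypes 0 of the 24 tested genes in these lists were called by edgeR, DESeq2 or limma-voom, with 4, 4 and 1 at an unadjusted p under 0.05. Whether these counts exceed the share of all tested genes under that threshold is not shown here. The summed level of the deep-layer genes was 311 to 429 CPM in WT, 324 to 378 in Dp16 and 346 to 403 in Dp16_2xIFNRs.

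Genes of cholinergic neurons, which occur in the striatum and basal forebrain, moved with the index: 5 of 5 tested had called positive slopes with a median of 1.52. Chat, which makes acetylcholine, had a slope of 1.46 ± 0.170 and ran from 0.511 to 4.57 CPM, and the choline transporter gene Slc5a7 had a slope of 1.5 ± 0.138. In the septum and pallidum list 2 of 7 rose, Nkx2-1 at 1.21 ± 0.216 and Gbx1 at 1.78 ± 0.339, both under 1.67 CPM in every library. Of 7 thalamus, 8 hippocampus, 4 olfactory bulb, 6 claustrum and 9 choroid plexus genes tested, 0 had a called slope, though 9 of 9 choroid plexus slopes were above 0. Choroid plexus RNA was spread over few libraries, with summed levels of 7.31 to 203 CPM in WT, 9.79 to 391.7 in Dp16 and 10.2 to 21.9 in Dp16_2xIFNRs, and its part in the slopes was not tested. Of 46 tested genes in these lists of other regions, edgeR and limma-voom each called 1 in each comparison with WT, and DESeq2 called 1 in Dp16 and 2 in Dp16_2xIFNRs. The gene called by edgeR was Smyd1 of the claustrum list, at 2.09 ± 0.484 CPM in WT, 3.56 ± 0.659 in Dp16 and 3.49 ± 0.629 in Dp16_2xIFNRs; its slope was 0.07 ± 0.123.

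The likeness of single genes was described by Pearson's r over the 18 libraries, on log2 CPM after removal of genotype and sex means. Libraries are shared by all genes in such values, so no test is attached. Each marker correlated with the mean of the other 6 at r between 0.974 (Tac1) and 0.991 (Drd2), and Pcp4 with the index at r = 0.936. Outside the 8 genes and the index, the genes nearest to the mean of the 7 markers were Pde1b (r = 0.989), Cd4 (0.988), Olfr1393 (0.983), Sh3rf2 (0.981) and Rarb (0.979). Their mean levels ran from 0.543 CPM for Olfr1393, which is low, to 212 CPM for Pde1b. The genes nearest to Pcp4 were Cd4 (r = 0.930), Pde1b (0.925), the sodium channel subunit gene Scn4b (0.922), Nexn (0.920) and Meis2 (0.918).

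Pcp4 stood 0.09 log2 units higher in males than in females (SE 0.0956), which was not called (edgeR adjusted p = 0.868). The rise of Pcp4 in Dp16 differed by 0.20 log2 units between males and females (SE 0.242, edgeR adjusted p = 1.00). The interaction of genotype with sex was called for 0 genes of all tested in any comparison by edgeR, with 577, 1098 and 350 at an unadjusted p under 0.05 in Dp16 against WT, Dp16_2xIFNRs against WT and between the duplication genotypes.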

How the data were processed

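Cortex RNA of 18 mice was measured, with groups and sex from the labels; p-values reflect the spread between samples only. TRIzol extraction, a Tecan/Nugen Universal Plus mRNA kit that keeps strand, and paired-end NovaSeq sequencing are stated per the labels' protocols. Reads were handled with HTSeq 0.6.1, HISAT2 2.1.0, SAMtools 1.5, FastQC 0.11.5 and bcl2fastq on GRCm38, per the submitters' processing notes. The strand setting of the counting and the handling of multiply matching reads are not given here. The authors deposited raw counts per gene and RPKM values. For 31735 of 31735 genes with counts in at least 2 libraries, the deposited RPKM equalled the count over the library total and 1 length per gene (relative tolerance 1e-06). RPKM served to compare levels between genes.

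Counts were filtered with filterByExpr by group (minimum count 10), scaled by TMM and tested with edgeR 4.0.16 (R 4.3.3), by the robust quasi-likelihood test with genotype and sex and all 18 libraries in the fit; the common biological coefficient of variation was 12.2%. A call means a p under 0.05 after Benjamini-Hochberg adjustment across the 18717 tested genes. A second fit added the striatal index (log2 CPM with a prior count of 2). Values of 1 gene of the index on its own are not reported here. Positions come from GENCODE M21, a release of the same build as the M24 gene set of the tables. Scripts were tested on simulated data.

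Same-numbered libraries had correlated deviations from their genotype means above 0.1 in 6 of 6 pairs of WT with Dp16_2xIFNRs (0.10 to 0.40), 3 of 6 of WT with Dp16 and 4 of 6 of Dp16 with Dp16_2xIFNRs. With sex removed as well the numbers were 3, 2 and 3 of 6; same-numbered mice were of the same sex in 6, 4 and 4 of 6 pairs. The labels do not say what the numbers mark, so the fit has no block and blocked values are given beside it where they differ.

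The members and gene lists were chosen with earlier results of these data known. Named were all 8 members, up to 4 called genes per list or, where none was called, up to 2 of highest mean CPM, the 5 genes most like the markers and like Pcp4, and the segment genes next to Pcp4 in fold. Alternatives were RLE size factors, TMM from genes outside the segment, other filters, models without sex or with age or a replicate block, only the groups compared, DESeq2 1.42.0, limma-voom (limma 3.58.1), limma on log2(RPKM + 0.1) and log2(RPKM + 1), other indices and leaving out each library. Removing the 3 libraries of lowest index, a slope per genotype, a linear scale and a random block for the number inside the sample identifiers were added after seeing the data.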

Additional observations from a re-analysis of the deposited data

How the results depend on the processing

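Pcp4 was called higher than WT in 32 of 32 alternatives in both comparisons, and in 25 of 25 with the striatal index. Leaving out 1 library gave log2 fold changes of 0.58 to 0.72 in Dp16 (highest edgeR adjusted p 0.0315, without WT replicate 2) and 0.63 to 0.75 in Dp16_2xIFNRs (highest 0.0146, without WT replicate 2); the highest among the other alternatives, 0.0468 and 0.0202, came without a filter on low counts. With the index the leave-one-out ranges were 0.65 to 0.71 and 0.68 to 0.74. Between the duplication genotypes the uncalled Pcp4 value, 0.06 in the main fit, lay between -0.03 and 0.11 in the leave-one-out fits. It was 0.14 with age in the model. With the index it was -0.01 without the 3 libraries of lowest index. The markers gave 672 values over 21 gene and comparison pairs and 32 alternatives: 0 were called (lowest adjusted p 0.767) and 104 differed in sign from the main value, which was itself uncalled. The slope of Pcp4 lay between 0.32 and 0.37 in the leave-one-out fits and passed in 24 of 25 alternatives, the exception being the replicate block.

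Whether the replicate numbers pair the samples is not settled by the labels; 13 of 18 same-numbered pairs had correlated deviations above 0.1 (from -0.23 to 0.40 over 2000 genes), and 6 of 18 libraries correlated best with their own number in both other genotypes. With the replicate block, Pcp4 stood at 0.63 in Dp16 (edgeR adjusted p = 0.00155) and 0.69 in Dp16_2xIFNRs (0.000709), and its slope at 0.35 (0.0947); no other call of Pcp4 or of a marker changed with it. The sample identifiers contain a number that 11 libraries share with at least 1 other (5 shared numbers), whose meaning is not stated; with it as a random block (limma-voom, correlation 0.25), Pcp4 stood at 0.61 (adjusted p = 0.00825) and 0.70 (0.00106), and its slope at 0.35 (4.10e-06). Counts of called genes in Dp16 relative to WT were 140, 168 with the block, 247 by DESeq2 and 91 without the 3 libraries of lowest index. In Dp16_2xIFNRs relative to WT they were 196, 304 with the block, 394 by DESeq2, 125 without WT replicate 2, 121 without Dp16_2xIFNRs replicate 2 and 116 without the 3 libraries of lowest index; with the index term 199 became 313 with the block, 306 with the identifier block and 306 without WT replicate 6. Genes with a called slope, the index genes included, numbered 191, 45 with the block, 320 without Dp16 replicate 4 and 383 without the 3 libraries. The causes were not tested.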

Other observations

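On the linear scale, the line of Pcp4 CPM on the summed CPM of the 10 index genes was fitted in each genotype as a description. It rose by 5.67 ± 3.47 CPM per 100 CPM of the sum in WT, 17.3 ± 2.72 in Dp16 and 9.30 ± 1.67 in Dp16_2xIFNRs (± SE, 6 libraries each). Extended to a sum of 0, it met 96.1 ± 34.0, 76.5 ± 25.5 and 154 ± 16.7 CPM. At the mean sum of 944 CPM, inside the observed range of every genotype, it read 150 CPM in WT, 240 in Dp16 and 242 in Dp16_2xIFNRs, which is 1.60 and 1.62 times WT. The intercepts lie outside the observed sums, which began at 526 CPM.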
